A study of Mus musculus with 10 samples.

Results

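Total RNA-seq of p53-/- MEF (mouse embryonic fibroblasts without the tumor suppressor p53) was examined for the response to CBL0137. Both libraries labelled p53-/- were taken, 1 from untreated cells and 1 from cells kept with 1 µM CBL0137 for 24 hr, which is 2 of the 10 libraries of the series. The cells came from mice labelled Trp53tm1Tyj (p53-/-), a germline disruption of Trp53 present in every cell, so the untreated control lacks p53 as well. The label gives no strain background, and the paper describes MEF from crosses of C57BL/6 with Trp53-heterozygous mice. Wild-type MEF from C57BL/6J mice, untreated (n = 2) or given the same dose for the same time (n = 2), were used as the comparison, and lungs of NIH Swiss mice made up the other 4 libraries. With 1 library for each treatment there is no replicate check in p53-/- MEF, and the culture or embryo behind each library is not named. Any difference in strain background cannot be told apart from genotype.

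CBL0137 is a curaxin, a small molecule that inserts into DNA without breaking it, loosens the wrapping of DNA around histones and traps the histone chaperone FACT on chromatin. Densely packed heterochromatin around the centromeres of mouse chromosomes consists of tandem arrays of the major satellite repeat, which is normally transcribed at a low level. p53 is a transcription factor that arrests the cell cycle after damage, in part by lowering the transcription of many genes for mitosis and DNA replication, and cells without it lack that brake.

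Of 21852651 reads in the untreated and 51320983 reads in the treated p53-/- file, 172386 (0.789%) and 538717 (1.05%) were counted on gene identifiers, and 8089 and 14025 identifiers had at least 1 read. All values below are reads of a library on an identifier per 1000000 counted reads of that library (RPM) or the treated over untreated ratio of these, with its exact 95% binomial interval, which covers counting error only. Identifiers with exon sequence opposite an exon of another gene took 77.9% of the untreated and 68.4% of the treated reads, although they hold 29.9% of annotated exon bases. They had 3.90 reads per kb of exon against 0.471 for the remaining identifiers in the untreated library, and 11.2 against 2.21 in the treated one. The kit keeps the strand of the RNA, and the strand setting of the counting is not given in the sources used here. The counts appear to be of the strand opposite to each gene, which was not tested. A fold change on an identifier therefore need not be one of its own gene's mRNA, also where no gene lies opposite. Its reads can come from the gene opposite. For that reason values are given for the identifier, in most cases with a gene whose exons overlap it on the other strand named beside it. Genes that overlap it without shared exon bases are named for a few identifiers only. Wild-type MEF had 67587 to 274300 counted reads per library.

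The labels could not be checked on the disrupted gene. The Trp53 identifier had 0 reads in untreated and 5 in treated p53-/- MEF, and 0 in each of the 4 wild-type libraries. Its neighbour on the other strand, Wrap53, had 0 and 4 reads in p53-/- MEF and 0, 1, 0 and 2 in wild-type MEF. Tsix, which lies opposite Xist, the RNA that silences 1 X chromosome in female cells, had 0 reads in untreated and 1 in treated p53-/- MEF. It had 181, 238, 93 and 281 reads in wild-type MEF. Of the Y chromosome genes examined, Ddx3y and Kdm5d had 0 reads in all 6 MEF libraries, Eif2s3y had 1 read in 1 wild-type library, and Uty had 5 in treated p53-/- MEF and 2 in a wild-type library. A difference between the genotypes at these genes cannot be told apart from the sex of the embryos. Both p53-/- libraries had reads on the own identifiers of fibroblast markers: over 18 listed markers the sum was 592 RPM untreated and 499 RPM treated. The sums over markers of other cell types were 0 and 5.57 RPM for 6 epithelial markers, 5.80 and 39.0 RPM for 5 endothelial markers, 0 and 1.86 RPM for 5 muscle markers and 11.6 and 31.6 RPM for 5 neural markers. The sum for the blood markers was 278 and 447 RPM, of which Csf1r, opposite Hmgxb3, held 96.9% of the reads. Identifiers opposite the markers summed to 3649 and 2235 RPM for fibroblast and 0 and 18.6 RPM for blood markers. The sums were 0 and 3.71 RPM opposite endothelial, 0 and 5.57 RPM opposite neural and 0 and 0 RPM opposite muscle markers, and no identifier lay opposite an epithelial one. These sums describe the libraries and do not test the cell type.

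Between untreated and treated p53-/- MEF, reads on predicted genes in major satellite-like sequence increased, of which Gm10800, the one with most reads, was 24.0-fold higher. Summed over the 36 listed immediate early and stress genes, RPM was 3.26-fold higher (2.57 to 4.20). Ier5, Junb and Dusp1, named for their large changes, had 0 to 2 reads before treatment and 51 to 114 after it. The treated library had 3.13 times as many counted reads, and most of the higher members reached 20 reads through it. Reads on replication-dependent histone identifiers were lower, Hist1h1e by 23.2-fold and Gm20628, opposite Hist2h3b and Hist2h2bb, by 8.27-fold. Reads on the identifiers Kctd18, Exosc9 and Lcorl, which lie opposite the mitotic genes Sgo2a, Ccna2 and Ncapg, were nearly lost in treated wild-type MEF. In p53-/- MEF the reads on these identifiers stayed within 2-fold of their untreated level.

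Of 3181 identifiers with at least 20 reads in both libraries together, 891 were at least 2-fold higher after CBL0137 (28.0% of those tested) and 375 at least 2-fold lower (11.8%), and the median log2 ratio was 0.23. The interval excluded 1 for 663 of the 891 and for 320 of the 375, and the whole interval lay past 2-fold for 209 and 85. Because the treated library had 3.13 times as many counted reads, a weakly covered identifier reached 20 reads mainly when it was higher there. Of the 796 identifiers with the lowest mean RPM 53.4% were at least 2-fold higher and 1.76% at least 2-fold lower, while of the 795 with the highest the shares were 11.6% and 12.96%. With a filter on the mean of both libraries instead (at least 100 RPM, chosen after seeing the data), 156 identifiers were higher and 150 lower of 1148. Scaling by all lines of each file raised every log2 ratio by 0.41 and gave 1230 higher and 173 lower.

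**Figure D1:**
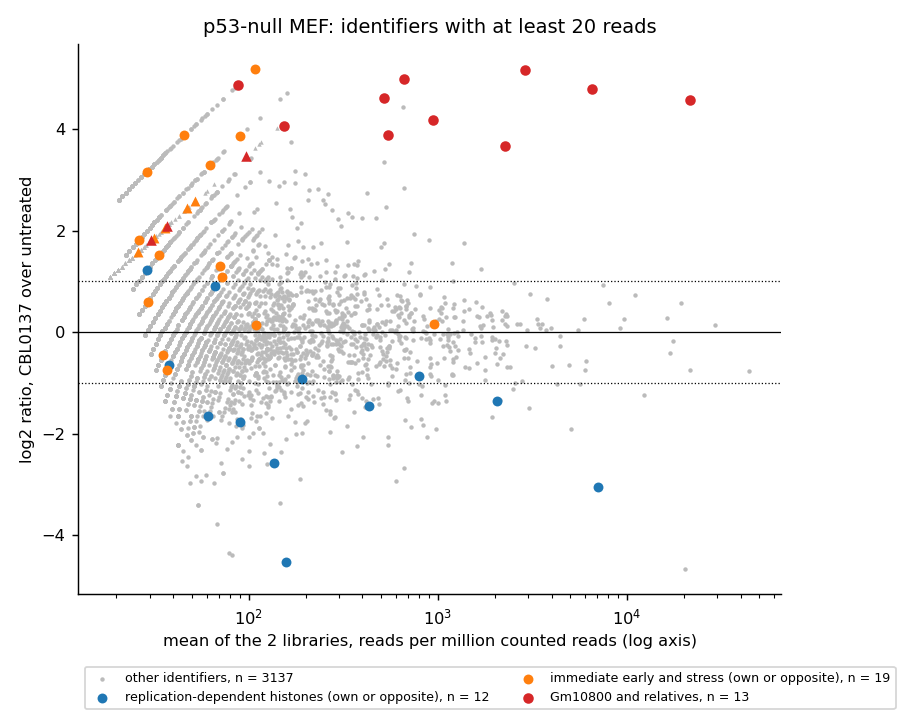
Each point is 1 of the 3181 identifiers with at least 20 reads in p53-/- MEF, with the mean of both libraries in RPM on a log axis and the log2 ratio of CBL0137 over untreated. Triangles are identifiers at 0 reads before treatment, drawn at the ratio to 3 reads, and dotted lines mark 2-fold. All 13 satellite-like identifiers (red) lie above 2-fold, from a log2 ratio of 1.82 for Gm10715 to 5.17 for Gm26870, immediate early and stress identifiers (orange) lie mostly above 2-fold at low levels, and 10 of 12 histone identifiers (blue) lie below 0.

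Stretches of 234 bases of the 3 satellite-like identifiers with most reads in treated p53-/- MEF are printed because they show that these identifiers, on 3 chromosomes, hold the same repeat. They come from GENCODE M21 transcripts (GRCm38), read 5′ to 3′ along the transcript, all on the minus strand: Gm10800 from chr2:98666807-98667040, Gm21738 from chr14:19417133-19417366 and Gm26870 from chr9:3004607-3004840. Capitals mark bases within an 8-base word that occurs, on either strand, in all 3 stretches.
Gm10800: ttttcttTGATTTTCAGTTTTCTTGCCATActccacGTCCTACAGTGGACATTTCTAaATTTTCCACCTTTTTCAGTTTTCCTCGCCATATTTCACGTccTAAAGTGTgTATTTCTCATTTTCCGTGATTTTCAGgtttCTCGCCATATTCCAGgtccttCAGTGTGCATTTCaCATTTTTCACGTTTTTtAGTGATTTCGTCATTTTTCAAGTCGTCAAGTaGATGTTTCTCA
Gm21738: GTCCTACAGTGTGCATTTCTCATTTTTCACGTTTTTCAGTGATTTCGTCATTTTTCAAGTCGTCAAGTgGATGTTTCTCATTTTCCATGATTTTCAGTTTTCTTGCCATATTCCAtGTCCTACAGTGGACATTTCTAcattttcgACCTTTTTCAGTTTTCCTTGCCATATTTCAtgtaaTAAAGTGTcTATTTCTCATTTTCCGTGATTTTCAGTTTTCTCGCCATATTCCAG
Gm26870: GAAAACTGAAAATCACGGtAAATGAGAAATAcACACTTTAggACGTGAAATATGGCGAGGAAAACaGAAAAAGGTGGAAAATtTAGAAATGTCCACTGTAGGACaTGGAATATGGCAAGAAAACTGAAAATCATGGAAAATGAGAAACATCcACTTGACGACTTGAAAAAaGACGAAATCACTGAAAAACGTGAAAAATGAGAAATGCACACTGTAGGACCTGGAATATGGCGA
Capitals covered 87.2% of the Gm10800 stretch, 93.2% of that of Gm21738 and 96.2% of that of Gm26870, and 63.2% to 64.5% of the bases were A or T. In the annotation Gm10800 is a protein-coding prediction of 660 exon bases on chr2:98666547-98667301, Gm21738 is one on chr14:19415857-19418930, and Gm26870 is a lincRNA on chr9:3000282-3038313. Among the 36429 counted identifiers matched to the annotation, 12 further ones shared at least 10% of their 12-base words with Gm10800. Their shares ran from 51.2% to 68.9%, and the next identifier shared 3.33%. Besides Gm21738 and Gm26870 these were Gm10801 on chromosome 2 and Gm10715, Gm10717, Gm10718, Gm10719, Gm10720, Gm10721, Gm10722, Gm11168 and Gm17535 on chromosome 9. A read from such a repeat can match several of them, so the division of reads between them is uncertain, and their sum is the firmer value.

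The 13 identifiers together had 509 reads in untreated and 37736 reads in treated p53-/- MEF, which was 0.295% and 7.00% of the counted reads. The sum went from 2953 to 70048 RPM, a ratio of 23.7 (21.7 to 25.9). In wild-type MEF the same sum was 1677 and 2396 RPM untreated and 13938 and 15611 RPM treated. The treated p53-/- library was thus the highest of the 6, and both treated wild-type libraries lay above both untreated ones.

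Gm10800 had 300 reads untreated and 22461 treated in p53-/- MEF, or 1740 and 41694 RPM, a ratio of 24.0 (21.4 to 26.9). In wild-type MEF it stood at 948 and 1141 RPM untreated and 7427 and 8589 RPM treated, a log2 change of 2.80 ± 0.22 (SE, adjusted p = 0.000243, edgeR). The log2 change was larger by 1.77 ± 0.37 (SE) in p53-/- MEF, a difference that did not pass the interaction test (adjusted p = 0.121, edgeR). Gm21738 went from 78 to 6793 reads (ratio 27.9, 22.3 to 35.3), while its treated wild-type libraries were far apart at 1938 and 470 RPM. Gm26870 went from 27 to 3041 reads (ratio 36.04, 24.7 to 54.8). Gm10801, on the strand opposite to that of Gm10800, went from 57 to 2267 reads (ratio 12.7, 9.79 to 16.9). All 12 relatives of Gm10800 had at least 20 reads and were at least 2-fold higher in treated p53-/- MEF, with 0 lower, beside 28.0% of all identifiers tested. This count is a description only, since the relatives were found after the values of Gm10800 were seen and can share the same reads. Some, such as Gm10722 (0 and 104 reads), reached 20 reads through the treated library. By treated reads, the relatives on the plus strand of chromosome 9 ran from Gm10715 (0 and 33 reads, at least 3.52-fold higher, exact lower limit 2.71) to Gm10718 (17 and 962 reads, ratio 18.1). They lie in the span of Gm26870, which is on the minus strand. ENSMUSG00000097432, which is not in the annotation used here, went from 10 to 677 reads (ratio 21.7, 11.7 to 45.4). It was also higher in treated wild-type MEF, with a log2 change of 3.04 ± 0.30 (SE, adjusted p = 0.000733, edgeR).

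**Figure D2:**
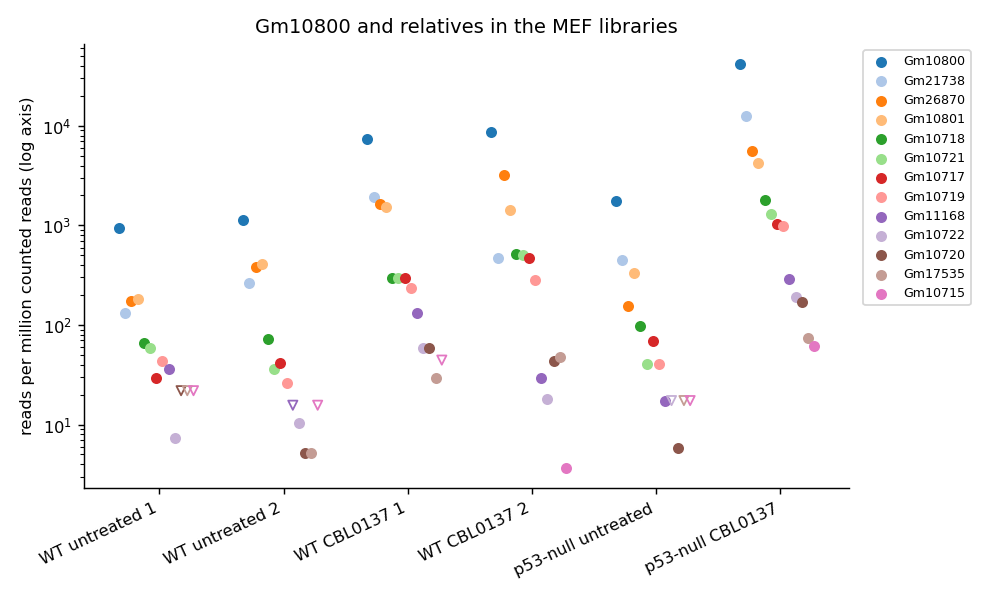
RPM (log axis) on Gm10800 and its 12 relatives in the 6 MEF libraries (WT, wild type), with 1 colour for each identifier. Open triangles mark identifiers at 0 reads, drawn at the level of 3 reads. Gm10800 lies at 1740 RPM in untreated and 41694 RPM in treated p53-/- MEF, and all 13 identifiers are higher in the treated p53-/- library than in the untreated one.

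Outside the satellite-like group, the identifiers with the highest lower bounds of the ratio included Smad7, Ajuba, Kdm7a and Gpr39. Smad7, an inhibitor of TGF-beta signalling, had 0 reads untreated and 152 treated (282 RPM), at least 16.2-fold higher against a floor of 3 untreated reads. The exact lower limit of the ratio, which also covers the error of the treated count, was 13.03. It had 0, 2, 2 and 2 reads in the wild-type libraries. Ajuba, a LIM protein of cell contacts, had 0 and 126 reads (at least 13.4-fold higher, exact lower limit 10.8), and 1, 1, 1 and 5 reads in wild-type MEF. Neither has exon sequence opposite another gene in the annotation, and the source of their reads was not determined. For both, the treated p53-/- library was the highest of the 6. Kdm7a, a histone demethylase, had 0 and 117 reads (at least 12.5-fold higher, exact lower limit 9.99) and lies opposite 4930599N23Rik. In wild-type MEF it passed the test, with 2 and 1 reads untreated, 9 and 28 treated, and a log2 change of 3.42 ± 0.63 (SE, adjusted p = 0.0166, edgeR). Gpr39, opposite Lypd1, had 2 and 165 reads (ratio 26.4, 7.19 to 220). The interaction adjusted p of these 4 identifiers lay between 0.303 and 0.459 (edgeR), so a difference from wild-type MEF was not shown.

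Among the tested identifiers 125 had 0 reads in untreated and none had 0 reads in treated p53-/- MEF. Of the 891 higher ones 269 had 0 or 1 read before treatment, and their median level was 17.4 RPM untreated and 65.0 RPM treated. The 375 lower ones had a median of 116 RPM untreated and 37.1 RPM treated. An exon opposite another gene was annotated for 54.8% of the higher, 64.8% of the lower and 64.1% of the remaining identifiers, and 83.8%, 70.4% and 73.9% were protein-coding.

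Immediate early genes are switched on within minutes of a stimulus without new protein synthesis, and many code for AP-1 transcription factors or for phosphatases that damp MAP kinases. Of 36 listed immediate early and stress genes, 15 had at least 20 reads as their own identifier in p53-/- MEF. Of these, 11 were at least 2-fold higher and 0 lower (28.0% and 11.8% of all tested), with a median log2 ratio of 1.82 against 0.23. This count is a description only, since 10 of the 11 had 0 to 3 reads before treatment and reached 20 reads through the treated library. Of the 8 members among the 796 identifiers with the lowest mean RPM, 5 were at least 2-fold higher, beside 53.4% of those 796. Summed over all 36 genes, with no filter, the list went from 429 to 1401 RPM, a ratio of 3.26 (2.57 to 4.20), and of 2.81 (2.20 to 3.63) without Ier5, which held most reads. In wild-type MEF 10 of them entered the fit and 0 passed the test (2.60% of all identifiers passed upwards), and the median log2 change was 0.59.

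Ier5, a regulator of the heat shock response, had 1 read in untreated and 114 in treated p53-/- MEF (ratio 36.5, 6.42 to 1453), and 0, 2, 4 and 14 reads in wild-type MEF. Junb, an AP-1 subunit opposite Prdx2, had 2 and 91 reads (ratio 14.6, 3.92 to 122). The MAP kinase phosphatase Dusp6 had 0 and 56 reads (at least 5.97-fold higher, exact lower limit 4.70), Dusp1 had 0 and 51 (at least 5.44-fold higher, exact lower limit 4.27), and Dusp4 had 1 and 46 (ratio 14.7, 2.51 to 594). Dusp1 had 5, 4, 4 and 4 reads in wild-type MEF, where untreated and treated libraries overlapped. The AP-1 members Fosl2 (0 and 34 reads) and Jun (3 and 27 reads) were higher too, although the interval of Jun included 1. Myc, Sqstm1, Hspa5 and Ddit3 stayed within 2-fold, with Ddit3, a marker of endoplasmic reticulum stress, at 8 and 15 reads (ratio 0.600, 0.239 to 1.63). Of 4 identifiers opposite list genes, 3 were at least 2-fold higher (28.0% of all tested), 2 of them from 0 to 3 reads. Gm20481, opposite the heat shock gene Hspa1a, had 2 and 61 reads (ratio 9.76, 2.59 to 82.4). In wild-type MEF it had 3 and 3 reads untreated and 6 and 41 treated, with a log2 change of 2.67 (adjusted p = 0.0325, edgeR). Ccdc85b, opposite the AP-1 gene Fosl1, had 0 and 39 reads, and Gm11175, opposite Jund, was close to level at 156 and 543 reads (ratio 1.11, 0.931 to 1.34).

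Replication-dependent histones are made in S phase, when new DNA is packed, and their mRNAs lack poly(A) tails. Of 62 listed histone genes 8 had at least 20 reads, of which 4 were at least 2-fold lower and 1 higher (11.8% and 28.0% of all tested), with a median log2 ratio of -1.28 against 0.23. The sum over all 62 went from 1555 to 735 RPM, a ratio of 0.473 (0.404 to 0.554). Hist1h1e, a linker histone, had 52 reads untreated and 7 treated (302 and 12.99 RPM), 23.2-fold lower. Hist1h1c, another linker histone, had 40 and 21 reads, 5.95-fold lower. Both were also lower in wild-type MEF, by log2 changes of -3.02 ± 0.47 and -2.63 ± 0.43 (SE, adjusted p = 0.0073 and 0.00939, edgeR). Hist2h3c2 was 3.41-fold lower with 24 and 22 reads. The members that did not follow were Hist1h1a at 3 and 22 reads (ratio 2.35, 0.705 to 12.2) and Hist1h1d at 8 and 47 reads (ratio 1.88, 0.880 to 4.61), both of whose intervals included 1. In wild-type MEF 5 of 7 fitted histone identifiers passed the test downwards and 0 upwards, beside 2.90% of all identifiers. The median log2 change of the 7 was -3.02. Hist1h1d was among the 5, with a log2 change of -4.29 (adjusted p = 0.0416, edgeR). So was Hist1h2bl, at -4.24 (adjusted p = 0.00252, edgeR), against a ratio of 0.528 (0.357 to 0.791) in p53-/- MEF. The interaction passed for neither (adjusted p = 0.201 and 0.132, edgeR). For Hist1h1e the interaction was -1.47 ± 0.78 (SE) and did not pass either (adjusted p = 0.534, edgeR), so a larger fall in p53-/- MEF was not shown.

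Most histone reads lay on identifiers opposite the genes. Over the 5 such identifiers in the files the sum went from 17200 to 3492 RPM in p53-/- MEF, a ratio of 0.203 (0.192 to 0.215). Gm20628 held 61.5% of these reads, and without it the ratio was 0.424 (0.387 to 0.465). Of the 4 with at least 20 reads 3 were at least 2-fold lower, beside 11.8% of all tested. Gm20628, opposite Hist2h3b, Hist2h2bb and Gm42743 on chr3:96267075-96270289, had 2162 and 817 reads, 8.27-fold lower. Its wild-type log2 change was -3.77 ± 0.21 (SE, adjusted p = 6.86e-05, edgeR). Gm20632, opposite Hist2h2aa2, had 513 and 624 reads and was 2.57-fold lower, and Gm20633, opposite Hist2h2aa1, had 109 and 125 reads and was 2.73-fold lower. Those 2 lie opposite near-identical histone genes, so their reads cannot be divided with certainty. In wild-type MEF Gm20632 stood at 1859 and 2032 RPM untreated and 1539 and 2144 RPM treated, so that the groups overlapped. 4930558J22Rik, opposite Hist1h4b, had 177 and 306 reads (ratio 0.553, 0.458 to 0.670).

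**Figure D3:**
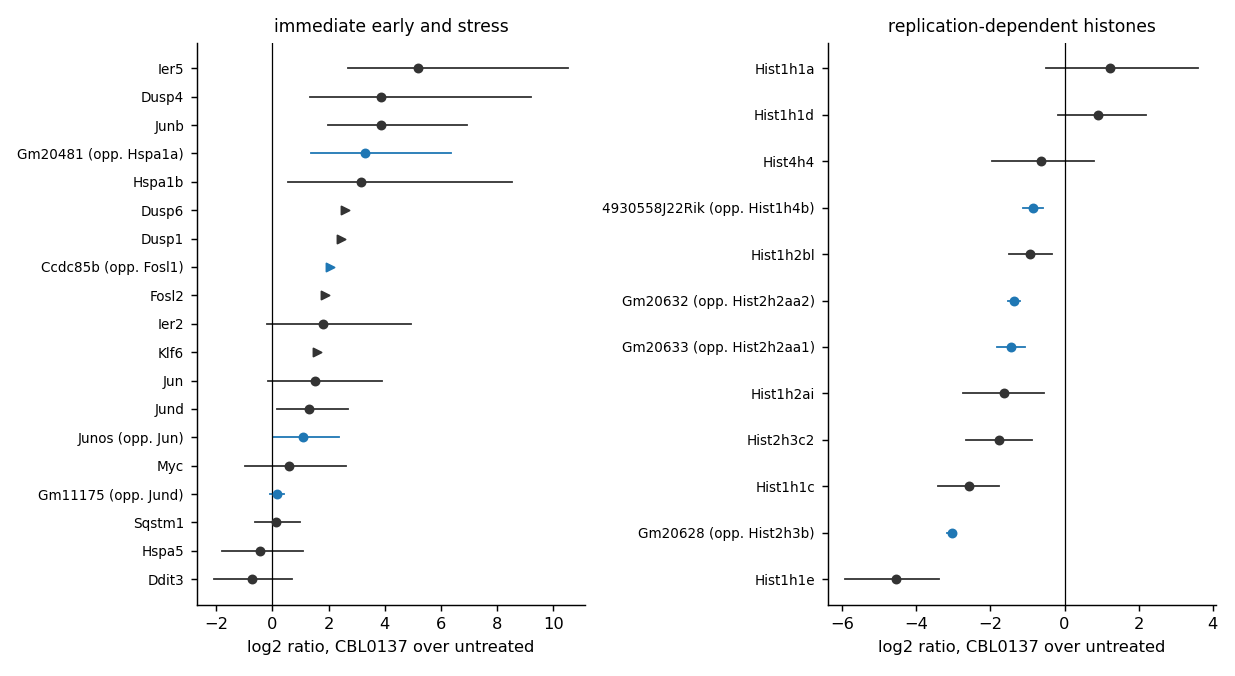
Log2 ratio of CBL0137 over untreated in p53-/- MEF for the members of the immediate early and stress list (left) and of the histone list (right) with at least 20 reads. Black marks a gene's own identifier and blue an identifier opposite a listed gene, bars are exact 95% intervals for counting error, and arrowheads without a bar are lower bounds for identifiers at 0 reads before treatment. Most of the left panel lies to the right of 0, up to Ier5 at 5.19, and most of the right panel to the left, down to Hist1h1e at -4.54.

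The largest falls by the upper bound of the ratio began with ENSMUSG00000045999, which is not in the annotation used here. It had 6764 reads in untreated and 827 in treated p53-/- MEF, or 39237 and 1535 RPM, 25.6-fold lower. In wild-type MEF it stood at 50091 and 32703 RPM untreated and 7812 and 6281 RPM treated, with a log2 change of -2.69 ± 0.22 (SE, adjusted p = 0.000243, edgeR). ENSMUSG00000092267, also without an entry, went from 1377 to 1142 reads, 3.77-fold lower, against a wild-type log2 change of -0.20 ± 0.20 (SE, adjusted p = 0.615, edgeR), and the interaction did not pass (adjusted p = 0.121, edgeR). Prr33, annotated as a lincRNA, had 27 and 4 reads (21.1-fold lower) and overlaps Lsp1 and Tnnt3 on the other strand without shared exon bases. Gm16033, opposite the metalloprotease gene Adam19, had 26 and 4 reads (20.3-fold lower). Ccnc, which codes for cyclin C of the Mediator kinase module and lies opposite Tstd3, had 22 and 5 reads (13.8-fold lower). Nubp1, an iron-sulfur cluster assembly factor opposite Tvp23a, had 46 and 14 reads (10.3-fold lower). Gm26786, opposite Zfp90 and Prmt7, had 183 and 75 reads (7.63-fold lower), Gm26751, opposite Nynrin, had 199 and 97 (6.41-fold lower), and Gm9929, opposite Dusp12, had 57 and 24 (7.42-fold lower). Gnpda2, opposite Guf1, and Gm4631 each had 17 and 5 reads (10.6-fold lower). Med12l, opposite Igsf10 and P2ry12, had 156 and 104 reads (4.69-fold lower) and the actin-binding Cald1 had 90 and 55 (5.11-fold lower). Both passed the test downwards in wild-type MEF, with log2 changes of -1.90 and -1.93 (adjusted p = 0.00328 and 0.00851, edgeR).

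The responses of the genotypes were set side by side without shared libraries. Among all 3181 identifiers tested in p53-/- MEF, 28.0% were at least 2-fold higher and 11.8% at least 2-fold lower. Of 78 identifiers that rose in wild-type MEF (2.60% of 2995 fitted, edgeR), 74 had at least 20 reads in p53-/- MEF. Of these 74, 46 were at least 2-fold higher and 0 at least 2-fold lower there. Of 87 that fell in wild-type MEF (2.90%), 85 had at least 20 reads, of which 45 were at least 2-fold lower and 2 at least 2-fold higher. Both of those 2 are named although 1 of them was picked after its values were seen. Ogn, which codes for the matrix proteoglycan osteoglycin, had 12 and 105 reads in p53-/- MEF (ratio 2.80, 1.54 to 5.59), and 7 and 9 reads untreated and 0 and 0 treated in wild-type MEF. It overlaps Cenpp on the other strand without shared exon bases, and the gene behind its reads was not determined. Mfsd8, a lysosomal membrane protein opposite Gm2011, had 9 and 66 reads (ratio 2.35, 1.16 to 5.36), against 9 and 12 untreated and 1 and 1 treated in wild-type MEF. The median p53-/- log2 ratio was 1.74 for the identifiers that rose and -1.02 for those that fell in wild-type MEF.

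Whether the change differed between the genotypes was tested with an interaction term. The fit covered the 6 MEF libraries, and since only wild-type MEF have replicates, their spread stands for that of the lone p53-/- libraries as well. It passed for 3 identifiers with a higher change in p53-/- MEF (0.100% of 2995) and for 0 with a lower one (0.00%). At an unadjusted p under 0.05 there were 179 and 130, and DESeq2 called 1 and 0. The 3 were Kctd18, Exosc9 and Lcorl, and each overlaps a gene of the mitotic cell cycle on the other strand.

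Kctd18, on the minus strand of chr1:57955101-58018956, shares 2455 exon bases with Sgo2a, whose product shugoshin protects the cohesion of sister chromatids. It had 445 and 1546 reads in untreated and treated p53-/- MEF, or 2581 and 2870 RPM (ratio 1.11, 1.00 to 1.24). In wild-type MEF it had 186 and 292 reads untreated and 3 and 20 treated, or 1356, 1521, 44.4 and 72.9 RPM. The wild-type log2 change was -4.57 ± 0.31 and the interaction 4.72 ± 0.46 (SE, adjusted p = 9.73e-05 and 0.00731, edgeR). Exosc9, an exosome subunit gene on chr3:36552606-36565727, shares 510 exon bases with Ccna2, which codes for cyclin A of S phase and early mitosis. It had 245 and 534 reads in p53-/- MEF (ratio 0.697, 0.598 to 0.815), and 114, 158, 1 and 9 in wild-type MEF. Its interaction was 4.41 ± 0.50 (SE, adjusted p = 0.0126, edgeR). Lcorl, on chr5:45697181-45857615, shares 944 exon bases with Ncapg, a subunit of condensin I. It had 146 and 419 reads in p53-/- MEF (ratio 0.918, 0.759 to 1.12), and 58, 92, 2 and 10 in wild-type MEF. Its interaction was 3.65 ± 0.48 (SE, adjusted p = 0.0305, edgeR). For all 3, treated wild-type libraries lay far below the other 4 MEF libraries, while both p53-/- libraries lay above untreated wild-type MEF. None of the 3 passed when any of 3 of the 4 wild-type libraries was left out, with 0 identifiers called in each case, and 136 identifiers passed without replicate 1 of treated wild-type MEF, the library with fewest reads.

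The next identifiers by adjusted p did not pass. Copg2, opposite the imprinted gene Mest, was 2.64-fold lower in p53-/- MEF (234 and 277 reads) against 408, 562, 17 and 43 reads in wild-type MEF (interaction adjusted p = 0.0701, edgeR). Vps26b, 110 bases from Ncapd3 on the other strand, moved in opposite directions. It went from 1189 to 655 RPM in p53-/- MEF and from 1378 and 1469 to 4084 and 4269 RPM in wild-type MEF (adjusted p = 0.0701, edgeR). Dvl2, opposite the fatty acid oxidation gene Acadvl, did likewise, from 1468 to 1043 RPM against 1269 and 1271 to 3655 and 3598 RPM. Cdc23, opposite the mitotic kinesin gene Kif20a, had 405 and 662 reads (ratio 0.523, 0.462 to 0.593) against 182, 289, 2 and 30 reads in wild-type MEF. Paqr4, opposite the mitotic entry kinase gene Pkmyt1, had 24 and 78 reads (ratio 1.04, 0.651 to 1.72) against 14, 17, 0 and 0. Ubxn6 shares 4648 exon bases with Chaf1a, a subunit of the replication-coupled histone chaperone CAF-1. It had 131 and 570 reads (ratio 1.39, 1.15 to 1.70) against 54, 104, 7 and 34. Dvl2, Cdc23, Paqr4, Ubxn6 and Ogn each had an interaction adjusted p of 0.0852 (edgeR), as had ENSMUSG00000045999 and Gm26751, with interactions of -2.00 and -1.90 on the log2 scale. In all 12 identifiers tied at this value, 7 with a higher and 5 with a lower change in p53-/- MEF, and the first 5 by identifier number are described.

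**Figure D4:**
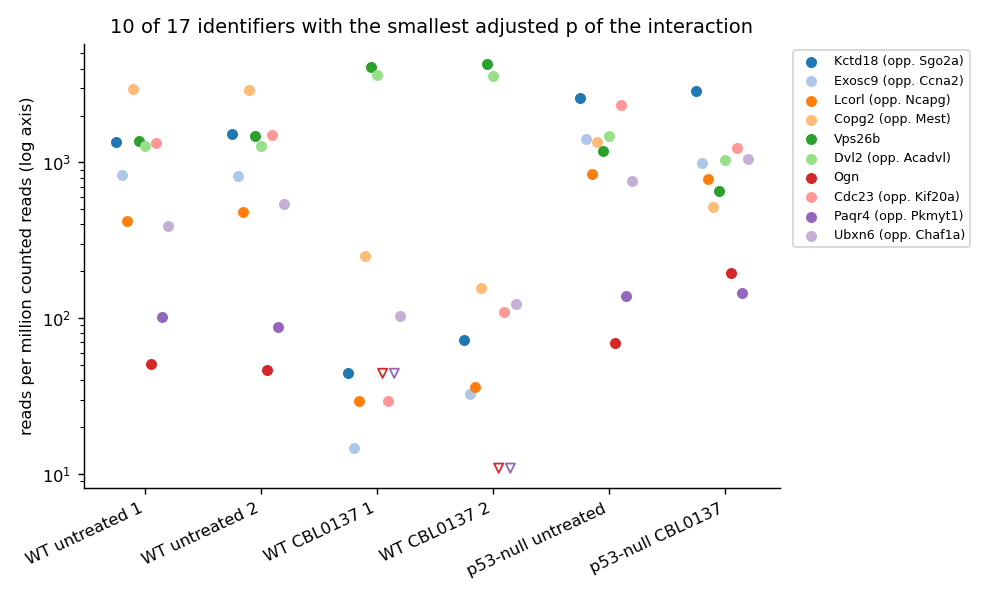
RPM (log axis) in the 6 MEF libraries (WT, wild type) for 10 of the 17 identifiers with the smallest adjusted p of the interaction (the last 5 are taken from a tie), with the overlapping gene on the other strand (opp.) in the legend. Open triangles mark 0 reads, drawn at the level of 3 reads. Kctd18, Exosc9 and Lcorl drop to at most 72.9 RPM in both treated wild-type libraries and stay at 778 RPM or more in treated p53-/- MEF.

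The wider cell cycle and DNA replication list of 60 genes was mixed. Of 13 own identifiers with at least 20 reads 1 was at least 2-fold higher and 4 lower (28.0% and 11.8% of all tested), with a median log2 ratio of 0.02, and of 10 identifiers opposite list genes 1 was higher and 0 lower, with a median of -0.37. Tk1, the thymidine kinase of S phase, opposite Afmid, had 33 and 260 reads (ratio 2.52, 1.75 to 3.74). The lower ones were Ccne2 (53 and 69 reads, 2.40-fold), Rb1 (32 and 39, 2.56-fold), Cenpf (14 and 7, 6.25-fold) and Mki67 (10 and 12, ratio 0.384). LTO1, opposite the cyclin D1 gene Ccnd1, held 49.7% of the reads on identifiers opposite the list. It was level at 580 and 1913 reads (ratio 1.06, 0.961 to 1.16). The sum over all identifiers opposite the list was lower, with a ratio of 0.791 (0.744 to 0.841), and of 0.613 (0.565 to 0.667) without LTO1. The sum over the genes' own identifiers had a ratio of 1.08 (1.00 to 1.17). Cdkn2b, the cyclin-dependent kinase inhibitor p15, had 31 and 179 reads (ratio 1.85, 1.26 to 2.80).

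Few reads lay on the own identifiers of the 35 listed p53 targets, and a link of this to the missing p53 was not tested. The sum over the list was 876 RPM in untreated and 780 RPM in treated p53-/- MEF (ratio 0.890, 0.737 to 1.08). Cdip1 held 52.0% of these reads, and without it the ratio was on the other side of 1, at 1.40 (1.03 to 1.94). Of 3 identifiers with at least 20 reads, Cdip1, opposite Hmox2, had 100 and 197 (ratio 0.630, 0.493 to 0.810) and the DNA repair gene Ddb2, opposite Acp2, had 20 and 23 (2.72-fold lower). Trp53cor1, the lincRNA also called lincRNA-p21, had 5 and 123 reads (ratio 7.87, 3.28 to 24.7) and overlaps AC167363.1 and Gm27599 on the other strand. In wild-type MEF it had 0, 2, 1 and 0 reads.

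How CBL0137 sets off an interferon response was a question of the study. Of 63 listed genes 8 had at least 20 reads as their own identifier in p53-/- MEF, of which 2 were at least 2-fold higher and 1 lower, shares close to the 28.0% and 11.8% of all tested, with a median log2 ratio of 0.77. The sum over the list went from 447 to 991 RPM, a ratio of 2.22 (1.74 to 2.86), and without Tapbp the interval of the ratio was 1.14 to 1.997. Tapbp, which loads peptides onto MHC class I and lies opposite Gm19412, had 13 and 234 reads (ratio 5.76, 3.30 to 11.0), against 11, 27, 17 and 27 in wild-type MEF. Ifi35 was the lower one, with 8 and 12 reads (ratio 0.480, 0.180 to 1.35), and Ifit1 had 5 and 15 (ratio 0.960, 0.332 to 3.38). Opposite the list, 3 of 6 identifiers were at least 2-fold higher and 0 lower (28.0% and 11.8% of all tested). Of these 6, 3 were among the 796 with the lowest mean RPM, of which 53.4% were higher. Art3, opposite the chemokine gene Cxcl10, had 1 and 35 reads (ratio 11.2, 1.88 to 455), and Gm17334, opposite the transcription factor gene Irf1, had 4 and 44 (ratio 3.52, 1.28 to 13.5). Gm11626, opposite Ifi35, had 3 and 22 reads (ratio 2.35, 0.705 to 12.2). In wild-type MEF 0 of 8 own and 0 of 6 opposite identifiers passed the test (edgeR). None of 25 listed NF-kappaB target genes reached 20 reads as its own identifier, and their sum was 46.4 RPM untreated and 132 RPM treated (ratio 2.84, 1.37 to 6.83). Psd, opposite the NF-kappaB subunit gene Nfkb2, had 7 and 191 reads (ratio 8.73, 4.16 to 22.0), against 7, 14, 4 and 19 in wild-type MEF, where the groups overlapped.

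FACT consists of Ssrp1 and Supt16. The Ssrp1 identifier had 4 and 7 reads and Supt16 had 4 and 4 in p53-/- MEF, too few for a comparison at this depth. Rpgrip1, which shares 1057 exon bases with Supt16 on the other strand, had 362 and 1036 reads (ratio 0.916, 0.812 to 1.04), and P2rx3, opposite Ssrp1, had 2 and 0. Of the list of histone chaperones and heterochromatin factors 8 own identifiers had at least 20 reads, 2 of them at least 2-fold higher and 1 lower, and of 9 opposite ones 2 were higher and 0 lower (28.0% and 11.8% of all tested). Supt6, a histone chaperone of elongating RNA polymerase, had 2 and 73 reads (ratio 11.7, 3.12 to 98.3), and Sdf2, which overlaps it on the other strand, had 9 and 78 (ratio 2.77, 1.39 to 6.29). The heterochromatin protein gene Cbx1 had 3 and 26 reads (ratio 2.77, 0.850 to 14.3), and the maintenance DNA methyltransferase gene Dnmt1 had 10 and 11 (ratio 0.352, 0.136 to 0.924). Dclre1c, opposite the heterochromatin histone methyltransferase gene Suv39h2, was level at 53 and 173 reads (ratio 1.04, 0.764 to 1.45), against a wild-type log2 change of -2.42 (adjusted p = 0.0227, edgeR). The interaction for it did not pass (adjusted p = 0.232, edgeR).

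Of 40 extracellular matrix genes 38 were in the files and 10 had at least 20 reads, 2 of them at least 2-fold higher and 4 lower (28.0% and 11.8% of all tested), with a median log2 ratio of -0.73. Thbs1 (18 and 13 reads, ratio 0.231, 0.104 to 0.499), Col6a3 (12 and 8, ratio 0.213, 0.0756 to 0.568) and Col3a1 (12 and 15, ratio 0.400, 0.175 to 0.936) were lower. Fbn1, the microfibril protein gene opposite Gm9913, had 12 and 84 reads (ratio 2.24, 1.22 to 4.51) and the collagen cross-linking enzyme gene Loxl1 had 1 and 28 (ratio 8.96, 1.48 to 366). Syn3, which shares 1733 exon bases with the metalloprotease inhibitor gene Timp3, had 2976 and 3967 reads (17264 and 7364 RPM), 2.34-fold lower. In wild-type MEF Syn3 stood between 13241 and 16267 RPM in all 4 libraries, and the interaction did not pass (adjusted p = 0.394, edgeR).

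The 16 mitochondrial identifiers with at least 20 reads had a median log2 ratio of 0.27, close to that of all identifiers. Only 1 of them (mt-Ts1, 2 and 18 reads) was at least 2-fold higher, beside 28.0% of all tested. Their list summed to 31296 RPM untreated and 37103 RPM treated. Of the small RNA hosts and long non-coding RNAs, Neat1, the scaffold of paraspeckles, had 1 and 28 reads (ratio 8.96, 1.48 to 366) and Gm26906, opposite the imprinted Meg3, had 54 and 50 (3.38-fold lower). The RNA components Rmrp (29 and 37 reads, ratio 0.408) and Rpph1 (21 and 29, ratio 0.442) were lower as well. For RNA polymerase and ribosome production, 0 of 3 own identifiers were past 2-fold in either direction, and of 7 opposite ones 2 were higher and 1 lower (28.0% and 11.8% of all tested).

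By reads, the leading identifiers of p53-/- MEF were Gm26825, opposite Gm15459, with 9634 and 17818 reads, and Gm10800. They were followed by Gm20721, opposite the G protein gene Gnas, with 4780 and 16546 reads (ratio 1.11, 1.07 to 1.14). Slc38a6 had 2681 and 12515 reads (ratio 1.49), Ccdc107, opposite Rmrp, had 4669 and 8703 (ratio 0.596), and mt-Nd5 had 2541 and 9628 (ratio 1.21). Gm17300, opposite Snhg3 and Rcc1, had 3210 and 8916 reads (ratio 0.889), and Ap3m1, opposite the vinculin gene Vcl, had 3315 and 7832 (ratio 0.756). Gm17275, opposite the replication-independent histone gene H3f3a, had 1427 and 7431 (ratio 1.67, 1.57 to 1.76), the other direction from the replication-dependent histones. ENSMUSG00000045999 completed these 10.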

How the data were processed

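Total RNA from p53-/- MEF (1 untreated and 1 CBL0137 library), with wild-type MEF and lung libraries, was analysed from 1 file of counts per library. The authors aligned and counted the reads before the files were deposited. The submitters' processing notes name TopHat2 2.0.9, HTSeq, GRCm38 and mm10, without a role for each, and the strand setting and annotation release are not given in the sources used here. The summary lines of each file (no feature, ambiguous) name no gene and were left out, which left 0.789% to 1.156% of the reads in a file as counted reads. Of 38293 identifiers, 36429 (95.13%) were matched to GENCODE M21 (GRCm38), which gave names, exons and opposite-strand overlaps.

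In p53-/- MEF, with 1 library for each treatment, reads were scaled to all counted reads, and the ratio was given with its exact 95% binomial interval and no test, for identifiers with at least 20 reads in both libraries together. An identifier at 0 was set to a floor of 3 reads in that library (17.4 RPM untreated, 5.57 RPM treated), and its ratio is then a bound, which leaves out the counting error of the other library; the exact lower limit is printed beside it. Intervals and floors cover counting error only. Wild-type effects and the genotype by treatment interaction were fitted over the 6 MEF libraries by edgeR's quasi-likelihood test (version 4.0.16, R 4.3.3) after filterByExpr (at least 10 reads in a library and 15 in all) and TMM scaling. The p-values were adjusted by Benjamini-Hochberg, with 0.05 as the threshold. The study's methods call the replicates biological, with cells of each embryo plated separately, but the embryo or culture of each library is not given in the sources used here, so these p-values measure only the spread between these libraries. On simulated data for the interaction over 2995 identifiers, 3% of 4-fold and 83.5% of 32-fold changes were recovered. DESeq2 1.42.0, other scalings and filters, all 10 libraries together and each wild-type library left out were the alternatives.

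Named identifiers were the 15 with the highest lower bound and the 15 with the lowest upper bound of the ratio, the 10 with most reads, the 10 with the smallest interaction adjusted p, and up to 6 of each gene list; other list members with at least 20 reads are named where the text accounts for a list. A few identifiers that this rule names are not reported here. Reads of list members were counted for the gene's own identifier and for identifiers with exons opposite it. The p53-/- libraries, the identifiers and the gene lists were chosen with earlier results of these data known. Relatives of Gm10800 were found after its values were seen, by 12-base words of the annotated transcripts. Tables and figures were made with Python 3.11.15, pandas 2.3.3, SciPy 1.17.1 and matplotlib 3.10.9. The table of repeat types was not used here.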

Additional observations from a re-analysis of the deposited data

Results flagged for a closer look

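The change after CBL0137 differed between p53-/- and wild-type MEF for 3 identifiers by the interaction test, and nothing else was singled out, since no group has the 4 samples that a search for outlying samples needs. On the log2 scale the interaction was 4.7167 for Kctd18 (opposite Sgo2a), 4.4077 for Exosc9 (opposite Ccna2) and 3.6528 for Lcorl (opposite Ncapg), with adjusted p of 0.00731, 0.0126 and 0.0305 (edgeR). Each was within 2-fold in the p53-/- pair and was lower in both treated than in both untreated wild-type libraries.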

How the results depend on the processing

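The p53-/- counts of identifiers past 2-fold, 891 higher (28.0% of those measured) and 375 lower (11.8%), stayed within 1.5 times under edgeR TMM, upper-quartile and DESeq2 scaling and without mitochondrial and the 10 most-read identifiers. Scaling by all lines of the files left 5.44% lower, a minimum of 10 reads 13.3% lower, a minimum of 100 reads 15.6% higher and 10.1% lower of 881, and a mean of at least 100 RPM, chosen after seeing the data, 13.6% higher and 13.1% lower of 1148. Each scaling moved every log2 ratio by the same amount, at most 0.41.

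For the interaction, 3 identifiers passed in the fit reported. Upper-quartile normalization gave 4, all 10 libraries 2, library sizes from all lines 9, no filter 19 and DESeq2 1, and with 1 wild-type library left out the number ran from 0 to 136. The wild-type effect, 165 identifiers as reported, gave 249 with library sizes from all lines and 34 with DESeq2, and 9 to 415 with 1 library left out, the highest number without the shallow replicate 1 of treated wild-type MEF. Leaving out a library leaves 1 sample in its group, which is then assumed to vary like the others. The cause of these shifts was not tested. No paired analysis was possible because GEO's titles and descriptions give no replicate numbers and p53-/- MEF have 1 library for each treatment; the numbers used here only name libraries. With 172386 and 538717 counted reads, an identifier near 20 reads is known only to within severalfold, and the interaction test had little power below very large changes.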
